A study of Mus musculus with 69 samples.

Results

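Suz12 was called on 6511 regions in 1 CUT&RUN library of wild-type embryoid bodies at day 8 of differentiation, and 2639 of these peaks overlapped a peak of the histone mark H3K27me3 by at least 1 bp. These 2639 regions (the members) were selected on the coordinates of the 2 peak lists, and the other 3872 day 8 Suz12 peaks served for comparison. H3K27me3 came from a list of 11884 peaks merged over wild-type ES cells, day 4 and day 8, so the stage at which a member carried the mark is not told by that list. All cultures were of CJ7, 1 mouse embryonic stem (ES) cell line, grown on fibroblast feeders in medium with the cytokine LIF and differentiated in hanging drops as embryoid bodies. RNA-seq groups used here were mutant embryoid bodies at day 8 (labelled mutant, from a study of EZH2 mutants, with the allele not given in the sources used here), wild-type embryoid bodies at day 8 and at day 4 (3 libraries each), and embryoid bodies at day 8 in 4 µM GSK343 or in its solvent DMSO (2 libraries each). GSK343 inhibits the enzymatic activity of EZH2 and was present from before differentiation onwards. Cells differentiated in DMSO and then replated for 5 days in ES medium with GSK343 or with DMSO made the last pair (3 libraries each). The labels do not say whether libraries came from separate cultures, so p-values measure the spread between libraries, which may be technical.

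Polycomb repressive complex 2 (PRC2) places methyl groups on lysine 27 of histone H3. Its core holds the methyltransferase Ezh2 (or Ezh1), Suz12, without which the complex is unstable, and Eed, which reads the finished mark. PRC1, with the ubiquitin ligase Ring1B and, in its canonical forms, a Cbx protein that binds H3K27me3, often sits on the same regions. In ES cells and embryos these complexes are known for holding developmental regulators silent at CG-rich promoters until a lineage uses them.

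The 6 genes shown here were picked by name, and the starts shown were rich in the dinucleotide CG, with 17 to 45 in 300 bases. Not every start in a member was, with 4 at Hoxa9 and 2 at Rnf220. The 150 bases just before the start of 6 genes are shown 5′ to 3′ on the gene's strand with each CG in capitals, since CG content is a property that the choice of members did not use. They were taken from RefSeq (GRCm38.p6, the same build as mm10). Hand2, which directs heart and limb development, starts in a member of 44.5 kb on chromosome 8, and its 150 bases at chr8:57320833-57320982 (plus strand) held 14 CG. Isl1, a regulator of heart and motor neuron progenitors, starts in a member of 21.9 kb, and chr13:116309689-116309838 (minus strand) held 20. Cdkn2a, which encodes the cell cycle inhibitors p16INK4A and ARF, has its most upstream listed start in a member of 14.2 kb, and chr4:89294620-89294769 (minus strand) held 22. T (brachyury), a regulator of mesoderm, starts in a member of 7.39 kb, and chr17:8434273-8434422 (plus strand) held 8. Utf1, a chromatin protein of ES cells, starts in a member of 4.33 kb, and chr7:139943706-139943855 (plus strand) held 13. Fgf4, a growth factor secreted by ES cells, starts in a member of 3.10 kb, and chr7:144861236-144861385 (plus strand) held 17.
Hand2: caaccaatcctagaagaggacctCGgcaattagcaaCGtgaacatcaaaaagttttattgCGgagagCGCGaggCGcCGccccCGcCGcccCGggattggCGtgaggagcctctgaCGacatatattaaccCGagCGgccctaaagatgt
Isl1: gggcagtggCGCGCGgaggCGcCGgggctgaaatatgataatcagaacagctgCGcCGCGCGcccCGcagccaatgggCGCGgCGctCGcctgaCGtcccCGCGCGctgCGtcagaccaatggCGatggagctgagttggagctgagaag
Cdkn2a: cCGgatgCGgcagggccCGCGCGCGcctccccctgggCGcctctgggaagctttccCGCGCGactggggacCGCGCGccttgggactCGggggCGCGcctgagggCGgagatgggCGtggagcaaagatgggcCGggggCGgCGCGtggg
T: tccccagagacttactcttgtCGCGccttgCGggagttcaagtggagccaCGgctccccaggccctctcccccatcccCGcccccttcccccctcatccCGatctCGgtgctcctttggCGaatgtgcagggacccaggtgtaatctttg
Utf1: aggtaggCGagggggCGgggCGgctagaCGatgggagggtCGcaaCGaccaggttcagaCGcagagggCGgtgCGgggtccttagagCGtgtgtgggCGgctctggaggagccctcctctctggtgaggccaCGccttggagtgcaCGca
Fgf4: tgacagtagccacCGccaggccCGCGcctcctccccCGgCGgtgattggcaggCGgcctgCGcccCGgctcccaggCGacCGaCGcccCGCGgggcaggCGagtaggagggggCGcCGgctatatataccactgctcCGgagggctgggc

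Starts at members in general were rich in CG. Of 32851 listed RefSeq starts, each given as 300 bases, 1669 lay within 1 kb of a member, and they held a median of 20 CG against a median of 7 over all starts. At least 10 CG were present in 80.8% of starts at members, in 78.7% of starts at the other day 8 Suz12 peaks, in 61.2% of starts at H3K27me3 with no member and in 36.2% of starts at neither. CG content thus set starts at members apart from starts at neither, but not from starts at Suz12 peaks outside H3K27me3. The share of starts that lay at a member was 0.601% where the window held 0 to 2 CG and 9.89% where it held 20 to 24. It was 9.46% at 30 or more, so the share grew no further above about 15 CG. The letters TATAAA, searched on both strands with no other motif, were found in 8.99% of starts at members and in 13.6% of all starts.

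**Figure D1:**
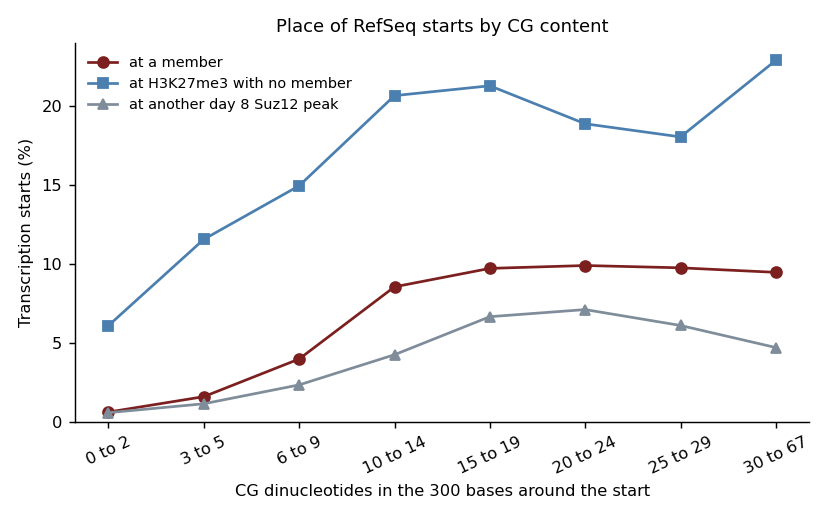
Percentage of listed RefSeq starts (y axis) that lie at a member, at H3K27me3 with no member or at another day 8 Suz12 peak, by the number of CG dinucleotides in the 300 bases around the start (x axis). The share at a member is 0.601% at 0 to 2 CG and 9.71% at 15 to 19 CG, then stays near that level.

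Most of the overlaps that define the members were complete. Of the 2639, 2424 (91.9%) lay wholly inside H3K27me3 and 2572 (97.5%) had at least 50% of their length inside. Just inside the rule, members overlapped H3K27me3 by 3, 6 and 10 bp, and just outside it, Suz12 peaks missed H3K27me3 by 13, 20 and 39 bp. Few peaks were so close to the rule's limit. Only 78 of the 3872 other peaks lay within 1 kb of H3K27me3, and their median distance from it was 38.7 kb.

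Members were wider than the other Suz12 peaks. Their width had a median of 1313 bp and reached 136280 bp, while the other peaks had a median of 1001 bp and none exceeded 6768 bp. Because 1001 bp is the least width in the list, 1129 members (42.8%) and 3146 other peaks (81.2%) were at that minimum. A class of 180 members of 10 kb or more had no counterpart among the other peaks. The limit of 10 kb was set after the widths were seen, and it is used below as a description.

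Wide H3K27me3 regions held members most often. A member lay in 1995 of the 11884 H3K27me3 peaks (16.8%), which had a median width of 13756 bp against 3947 bp for H3K27me3 peaks with no member. The share with a member was 2.67% among H3K27me3 peaks under 2.5 kb, 13.9% from 5 to 10 kb, 38.5% from 10 to 20 kb and 87.3% from 40 kb. A wide peak offers more bases to overlap, and this was not corrected for. Within the 1995 H3K27me3 peaks, members covered 23.8% of the length, so that most of the marked length lay outside the called Suz12 peaks. In 1575 of them there was 1 member, and 46 held 4 or more, up to 12.

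**Figure D2:**
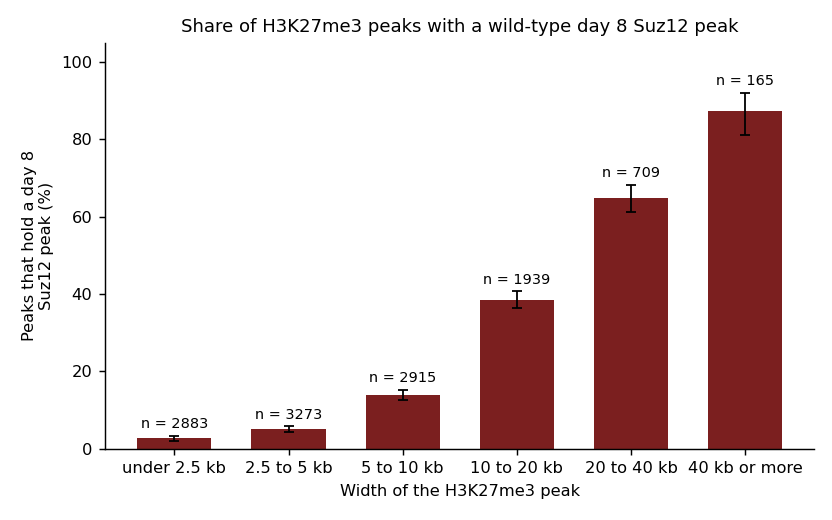
Percentage of H3K27me3 peaks that hold a member (y axis) by the width of the H3K27me3 peak (x axis). Bars give the share, error bars the exact 95% binomial interval for counting error, and the share runs between 2.67% and 87.3%.

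The 4 widest members lay over the Hox clusters. The HoxC cluster lay under 1 member of 136.3 kb at chr15:102907975-103044254, HoxA under 1 of 127.6 kb at chr6:52149771-52277325 and HoxB, between Hoxb2 and Hoxb9, under 1 of 107.8 kb at chr11:96250021-96357863. HoxD, between Hoxd3 and Hoxd13 and with its neighbour Evx2, lay under 1 of 103.3 kb at chr2:74652213-74755523. The outer genes Hoxb1, Hoxb13 and Hoxd1 were at other members, of 9.15, 23.7 and 9.47 kb. Hox genes encode the homeodomain proteins that give body segments their identity along the head to tail axis. The next widest were at Hand2 (44.5 kb), Nfix (38.0 kb), Tbx3 (35.3 kb), the PRC1 gene Cbx8 (34.6 kb), Dlx5 with Dlx6 (33.1 kb), Pou3f3 (32.6 kb), Pax2 (32.2 kb) and Pax6 (30.7 kb). Each of these 12 widest regions held a developmental transcription factor except that at Cbx8. By number and not width, Nfix had the most members in and within 1 kb of its span, 10, followed by Rbfox3 with 9, Gse1 with 8, and Srcin1, Rnf220 and Ttll6 with 6 each. These counts were not corrected for the length of the span, which was 422 kb at Rbfox3 and 353 kb at Gse1. Except for Rnf220, these genes lie on chromosomes 8 and 11, which held many Suz12 peaks (below). Rbfox3, Gse1 and Ttll6 had no member within 1 kb of a listed start.

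Across lists of genes, regulators of development were at members far more often than genes in general. Of 21900 protein-coding genes, 1598 (7.30%) had a listed start within 1 kb of a member or, where no start is listed, a span within 1 kb. All 39 Hox genes did, 37 of them at members of 10 kb or more. Of 98 other homeobox genes 91 did (60 at the widest class), and of 83 T-box, forkhead, GATA and Sox genes 68 did (44 at the widest class). Secreted signals were at members for 44 of 70 genes, but only 3 were at the widest class. Among the 30 PRC2 and PRC1 subunit genes 6 were at members, among them Phf19, which joins PRC2 to chromatin, and the PRC1 genes Bmi1 and Cbx8. None of 20 housekeeping genes was. Among pluripotency genes 9 of 26 were at members, including Pou5f1 (Oct4), Utf1 and Fgf4, while Nanog and Sox2 were not. The member at Pou5f1 was of the minimum width and lay 0.157 kb outside the start window. The members at Pou5f1, Utf1 and Fgf4 overlapped no peak of the Ezh2, Ring1B or other Suz12 lists.

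Members differed by width in where they lay. Of the 180 widest, 143 (79.4%) overlapped a listed start, while 33 lay in a protein-coding gene span without a listed start and 4 lay outside both. Of the 1129 members at the minimum width, 191 (16.9%) overlapped a listed start, 544 (48.2%) lay in a gene span and 394 (34.9%) outside both. The other day 8 Suz12 peaks resembled this last class, with 570 of 3872 (14.7%) over a listed start. Exons and introns were not used here.

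The other peak lists separated the members by width in the same way. Ezh2, merged over the wild-type stages, had a peak at 158 of the 180 widest members (87.8%), at 162 of 1330 members of intermediate width (12.2%) and at 2 of 1129 members at minimum width (0.177%). Ring1B had a peak at 81.7% of the widest members, 23.2% of the intermediate and 5.58% at minimum width. Over all members the shares were 12.2% for Ezh2 and 19.7% for Ring1B, against 0.542% and 2.07% of the other day 8 Suz12 peaks. Narrow members thus had an Ezh2 peak no more often than other Suz12 peaks of the same width, which had one in 0.254%. For Ring1B the shares at minimum width were 5.58% of members and 1.21% of the other peaks. Both proteins were called at 235 members, neither at 2033 (77.0%). Seen from the shorter Ezh2 list, 396 of its 450 peaks (88.0%) overlapped a member, as did 425 of 782 Ring1B peaks (54.3%). The merged Suz12 list was not used as support, since 471 of its 491 peaks share an edge with the day 8 list within 1 bp.

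Suz12 lists of the mutant overlapped members to unequal degrees in the 2 libraries of a stage. At day 8, mutant library 2 (7735 peaks) had a Suz12 peak at 32.7% of members and at 8.86% of the other wild-type peaks, while mutant library 1 (3322 peaks) had one at 4.93% and 1.06%. In mutant ES cells library 1 had a peak at 16.0% of members and library 2 at 4.74%. At day 4 the mutant libraries had peaks at 6.33% and 6.56% of members. The wild-type list of ES cells had a peak at 3.94% of members and that of day 4, with 1000 peaks, at 1.33%. Only 3.73% of the peaks in that wild-type ES cell list and 9.90% in the day 4 list lay at H3K27me3 at all, so these lists do not show whether the members are bound at those stages.

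The widest members were found again in the mutant most often, and as above a wide peak offers more bases to overlap. Of the 180, 168 had a Suz12 peak in at least 1 of the 2 mutant day 8 lists and 8 were in none of the 6 mutant lists. In mutant day 8 library 2 the share was 92.8% against 42.4% of intermediate members and 11.8% at minimum width. All 18 members found in all 6 mutant lists were of 10 kb or more, and the HoxA, HoxB, HoxC and HoxD members were among them. Of all members, 1590 (60.3%) were in none of the mutant lists. With 1 wild-type list of day 8, and a least peak width of 1001 bp in that list against 501 or 487 bp in the mutant ones, no test of mutant against wild type was made, and a missing peak is not shown to be a lost one.

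**Figure D3:**
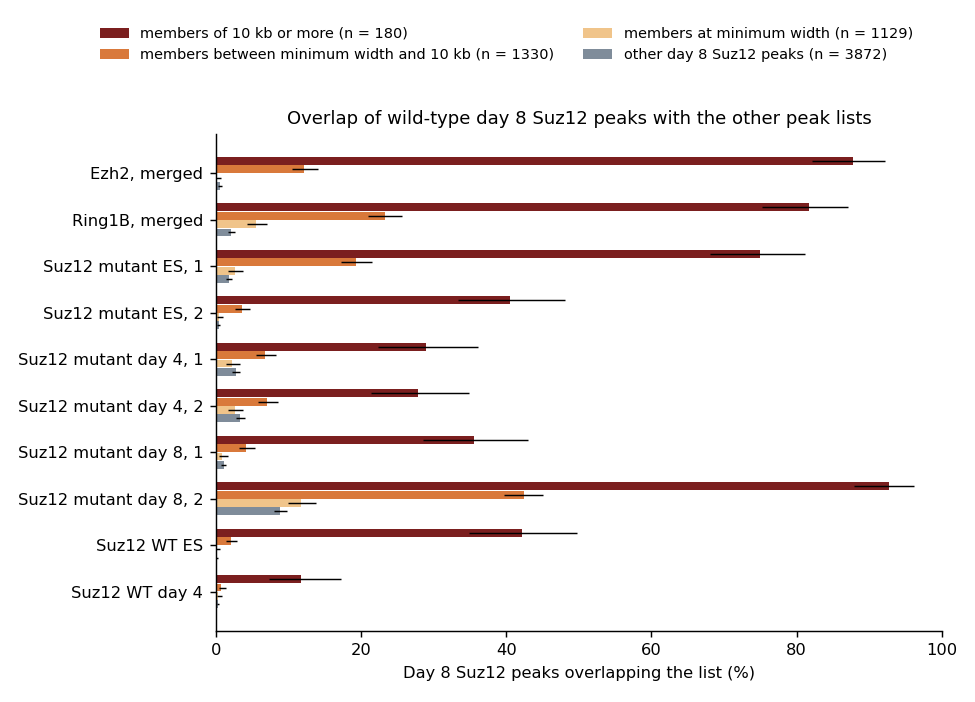
Percentage of wild-type day 8 Suz12 peaks (x axis) that overlap each other peak list (rows), for members of 10 kb or more, members of intermediate width, members at minimum width and the other peaks. Error bars are exact 95% binomial intervals for counting error, and members of 10 kb or more have the highest share in every list drawn.

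Chromosomes 8 and 11 held a large part of the Suz12 peaks. Together they held 967 members (36.6%), against 18.6% of all H3K27me3 peaks. The widest members did not share this, with 24 of 180 (13.3%) on these chromosomes, against 39.8% of members at minimum width. All day 8 Suz12 peaks had 48.4% there, and the other Suz12 lists 22.1% to 47.9%. What set these shares was not tested. The median log2 fold change of genes on chromosomes 8 and 11 in the mutant against wild type at day 8 was −0.02 and 0.02, beside −0.03 on the other chromosomes. The mutant day 8 Suz12 lists had 44.9% and 47.9% of their peaks there too. A comparison of mutant with wild type cannot show what both have in common, so no conclusion is drawn from these medians.

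RNA was compared for genes at members, whose rule uses peak coordinates and no RNA value. Members and gene lists were nonetheless chosen with earlier results of these data known. Across the 3 deposited tables, genes at a member numbered 1391, 464 of them placed by span. RPKM (reads scaled to gene length and library depth) were tested with limma on log2(RPKM + 1), with Benjamini-Hochberg adjustment over all genes, and a gene was called at an adjusted p under 0.05. Fold changes on this scale understate changes of low genes. In embryoid bodies a smaller share of cells of a type and less RNA per cell cannot be told apart. Depth in recovered reads was 7.17 to 28.5 M per library for mutant and wild type, 5.01 to 22.0 M for GSK343 and DMSO, and 2.27 to 8.34 M for replated cells. Wild-type day 8 library 3 stood apart from libraries 1 and 2, with Pou5f1 at 222 RPKM where they had 27.8 and 28.7, and the total counts and a number of the genes below are also given without it. Counts over the gene lists are given with all libraries.

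Genes at the widest members had little RNA before day 8. Over 125 such genes of the mutant and wild-type table, the median level was 0.222, 0.261 and 0.360 RPKM in the 3 wild-type ES cell libraries, 0.151, 0.198 and 0.159 at day 4, and 1.20, 1.64 and 0.268 at day 8. Library 3 of day 8 thus stayed near the day 4 level. In mutant embryoid bodies at day 8 the median was 1.78, 0.818 and 0.571 RPKM, overlapping wild type. With GSK343 it was 0.546 and 0.251 RPKM at day 8, below both DMSO libraries at 1.49 and 1.20 RPKM.

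Between day 4 and day 8 of wild-type differentiation, more genes at members rose than fell. Of 1096 tested, 200 (18.2%) were higher at day 8 and 133 (12.1%) lower, where 10.6% and 10.2% of all genes tested were. At the widest members 42 of 107 (39.3%) were higher and 4 lower. At day 4, 84%, 82.4% and 79.2% of the 125 genes at the widest members were under 1 RPKM, so most had little room to fall. Genes silent in nearly all libraries were not tested, and a gene high in a single group could enter the test through that group. Without wild-type day 8 library 3 the counts at members were 331 of 1088 higher and 182 lower, beside 15.8% and 15.4% of all genes. The T-box, forkhead, GATA and Sox regulators had 19 of 39 higher and 2 lower, the Hox genes 4 of 10 higher, among them Hoxb2, and none lower, and the other homeobox genes 10 of 42 higher and 2 lower. Of the pluripotency genes at members 1 of 9 was higher and 4 were lower.

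Gadd45b, a stress and growth arrest gene at a member of the minimum width, was the clearest rise. It had 65.1, 73.6 and 36.9 RPKM at day 8, against 1.31, 1.15 and 2.298 RPKM at day 4. The groups did not overlap, and it was higher by 4.49 ± 0.24 on the log2 scale (SE, adjusted p = 4.2e-08). Igf2, a fetal growth factor whose reads may mix with its antisense neighbour Igf2os, had 283, 251 and 4.33 RPKM at day 8, against 0.577, 0.901 and 0.336 RPKM at day 4 (5.51 ± 1.17, adjusted p = 0.00618). Hand2 had 97.3, 80.7 and 0.0890 RPKM at day 8 and was listed at 0 in all 3 libraries of day 4. Nrp1, a receptor for VEGF and semaphorins, had 158, 146 and 0.645 RPKM at day 8, against 0.238, 0.246 and 0.382 RPKM at day 4. For these 3 genes library 3 was far below the other 2 libraries of day 8. Without library 3 the differences of Gadd45b and Igf2 were 4.79 and 7.40 (adjusted p = 1.75e-08 and 3.06e-05). Hand2 and Nrp1 passed the test with all libraries (adjusted p = 0.0343 and 0.0307) and without that one (0.000233 and 0.000279), but both lost the call when any other single library of the 2 groups was left out.

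Genes of PRC1 at members were among those that rose. Cbx8, a chromobox subunit that reads H3K27me3, had 5.24, 5.50 and 1.40 RPKM at day 8, against 0.361, 0.837 and 0.371 RPKM at day 4 (log2 fold change 1.61 ± 0.32, adjusted p = 0.00467; 2.08 and adjusted p = 5.91e-05 without library 3). Bmi1, a PRC1 subunit of adult stem cells, rose by 1.49 on the log2 scale, although it lost its call without day 8 library 1 or 2 or day 4 library 1 or 2. Etv4, a transcription factor downstream of FGF signalling, fell to 1.48, 1.85 and 5.61 RPKM at day 8, against 23.2, 29.1 and 47.5 RPKM at day 4 (log2 fold change −3.19 ± 0.41, adjusted p = 0.000344). Slc27a2, a fatty acid transporter, had 0.330, 0.521 and 10.5 RPKM at day 8, against 50.7, 40.4 and 38.2 RPKM at day 4. The groups did not overlap, although library 3 again lay nearest to day 4. Foxd3, an ES and neural crest regulator, had 0.148, 0.151 and 4.73 RPKM at day 8, against 26.5, 23.7 and 10.6 RPKM at day 4 (−3.34 ± 0.60, adjusted p = 0.00289). Utf1 fell by 3.38 on the log2 scale but lost its call without wild-type day 8 library 1 or 2.

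With GSK343, genes at members fell at day 8 more often than genes in general. Of 1097 tested, 215 (19.6%) were higher than in DMSO and 334 (30.4%) lower, where 15.6% and 16% of all genes were. At the widest members 16 of 112 (14.3%) were higher and 63 (56.2%) lower, and their median log2 fold change was −0.70. As above, a gene high in DMSO alone could enter the test through that group. Genes at H3K27me3 with no member had 16.4% higher and 27.9% lower, and genes at the other day 8 Suz12 peaks 114 of 945 (12.1%) lower. Falls were thus frequent at H3K27me3 with and without a called Suz12 peak, and the difference between these classes was not tested.

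**Figure D4:**
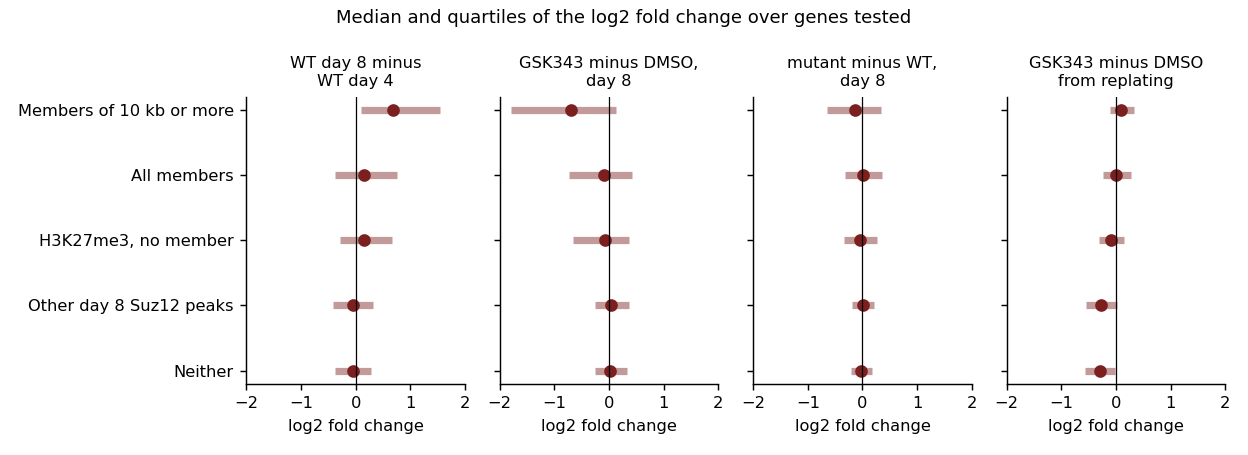
Log2 fold change (x axis) over the genes tested in each class (rows) in 4 comparisons (panels); points are medians and bars run between the quartiles. Genes at members of 10 kb or more have a median of 0.68 at day 8 against day 4 and −0.70 with GSK343 against DMSO at day 8.

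With GSK343 most Hox genes and T-box, forkhead, GATA and Sox regulators tested at members were lower, and most pluripotency genes at members were higher. Hox genes had 11 of 15 lower and none higher, T-box, forkhead, GATA and Sox regulators 23 of 38 lower and 5 higher, other homeobox genes 18 of 42 lower and 9 higher, and secreted signals 18 of 33 lower and 4 higher. Of pluripotency genes at members 8 of 9 were higher and none lower. Of the 4 neural markers, all at members, Tubb3, Sox1 and Pax6 were higher and none was lower. Of the PRC genes at members Cbx8 and Cbx2 were among those lower and Phf19 was higher, though both Cbx2 and Phf19 lost their calls without DMSO library 1 or 2 or GSK343 library 2. The cardiac marker at a member, Nkx2-5, was not called (log2 fold change −0.15). Of 2 endoderm markers at members, Sox17 was lower and Foxa2 was not called. All 3 endoderm markers tested that were not at a member (Afp, Ttr and Apoa1) and all 4 such cardiac markers were lower. Of 17 pluripotency genes not at a member, 15 were higher. The part of cell makeup in the changes at members was not tested.

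Hand2 had 0.264 and 0.0482 RPKM with GSK343, against 42.2 and 50.3 RPKM in DMSO. The groups were far apart, and the log2 fold change was −5.35 ± 0.14 (adjusted p = 1.49e-08). Nrp1 had 1.67 and 0.319 RPKM with GSK343, against 101.1 and 136 RPKM in DMSO (−5.98 ± 0.33, adjusted p = 1.08e-06). Hand1, a partner of Hand2 in heart and extraembryonic mesoderm, had 0.958 and 0.852 RPKM with GSK343, against 55.7 and 62.6 RPKM in DMSO. Among Hox genes Hoxb2 had 0.140 and 0.0992 RPKM with GSK343, against 8.93 and 10.6 RPKM in DMSO. In each of these lineage genes both GSK343 libraries were near silent and both DMSO libraries were not. In the opposite direction Utf1 had 119 and 132 RPKM with GSK343, against 6.09 and 6.83 RPKM in DMSO (4.09 ± 0.12, adjusted p = 2.03e-08). Fgf4 had 51.4 and 104 RPKM with GSK343, against 3.80 and 3.10 RPKM in DMSO, and Pou5f1 had 421 and 465 against 60.9 and 54.5 RPKM. For these pluripotency genes both GSK343 libraries lay several-fold above both DMSO libraries. Tcf15, a regulator of the exit from pluripotency and of somites, had 87.9 and 55.3 RPKM with GSK343, against 3.40 and 2.14 RPKM in DMSO, and Dok4, a signalling adaptor, had 2.81 and 2.28 RPKM with GSK343, against 90.1 and 96.3 RPKM in DMSO. The calls of Nrp1, Hand1, Hoxb2, Utf1, Fgf4 and Pou5f1 held when any 1 of the 4 libraries was left out. That of Hand2 held without either GSK343 library, and without a DMSO library it did not pass the filter on low values. T had 9.09 and 0.395 RPKM with GSK343, against 37.1 and 10.8 RPKM in DMSO. This mesoderm gene was not called by limma (−2.50 ± 0.90, adjusted p = 0.0584), and its GSK343 libraries differed widely.

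Many genes at members that differed with GSK343 had moved the opposite way in wild-type differentiation, and the libraries of these comparisons are separate. Of 321 genes at members that were lower with GSK343 and tested in both, 147 (45.8%) were higher at wild-type day 8 than at day 4 and none was lower. Of 213 that were higher with GSK343, 87 (40.8%) were lower at day 8 than at day 4 and 1, Palld, was higher. Over all genes tested the shares were 38.1% and 33.3%, so this was no feature of members alone. Across the 1047 genes at members the log2 fold changes of the 2 comparisons had a Pearson correlation of −0.83, beside −0.76 over 13792 genes. Genes are not independent, and within a comparison all share its libraries.

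Mutant embryoid bodies at day 8 differed from wild type at few members. Of 1096 genes tested 38 (3.47%) were higher and 4 (0.365%) lower, where 1.3% and 0.212% of all genes tested were, or 1.51% in either direction. At H3K27me3 with no member the share higher was 1.80%, and at the other day 8 Suz12 peaks 11 of 953 were higher. Among the 107 genes at the widest members 6 were higher and none lower. None of 10 Hox genes or 42 other homeobox genes at members was called by limma in either direction. At an unadjusted p under 0.05 there were 228 of the 1096 genes at members and 2035 of all 14180. Without wild-type day 8 library 3 the calls at members were 96 of 1088 higher and 106 lower, beside 5.81% and 3.39% of all genes, and 27 of 106 genes at the widest members were then lower. Without wild-type day 8 library 1 they were 3 higher and none lower, and without mutant library 1 they were 53 higher and 20 lower, so these counts rest on single libraries. When only the 2 groups compared were fitted, no gene at a member was called.

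Ezh2 itself was at 18.3, 22.2 and 26.0 RPKM in mutant embryoid bodies, against 42.8, 41.4 and 45.8 RPKM in wild type, with no overlap (−0.95 ± 0.17, adjusted p = 0.0185). Its start was not at a member. The deposited level does not show which part of the transcript the allele affects. The call was lost without wild-type day 8 library 1 or 2 or mutant library 2, and the difference ran from −1.07 to −0.83 over the alternatives.

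The cell cycle inhibitors Cdkn2a and Cdkn2b, neighbours on chromosome 4, were higher in the mutant. Cdkn2a had 31.6, 23.8 and 10.5 RPKM in mutant embryoid bodies, against 1.49, 1.69 and 1.05 RPKM in wild type. Every mutant library was above every wild-type one, and the log2 fold change was 3.14 ± 0.38 (adjusted p = 0.0015). It kept its call without any 1 library and lost it only when the 2 groups were fitted alone (adjusted p = 0.136). Cdkn2b, p15INK4B, had 7.21, 4.54 and 4.55 RPKM in the mutant, against 0.461, 1.20 and 0.571 RPKM in wild type (1.88 ± 0.39, adjusted p = 0.0311), and lost its call without wild-type day 8 library 1 or 2 or mutant library 2 or 3. With GSK343 Cdkn2a had 15.4 and 14.5 RPKM, against 3.54 and 2.91 RPKM in DMSO (1.92 ± 0.26, adjusted p = 0.000405), and Cdkn2b had 5.16 and 7.62 RPKM, against 1.18 and 1.68 RPKM in DMSO (1.59 ± 0.26, adjusted p = 0.00118). Another inhibitor gene at a member, Cdkn2c, ran the other way, with 0.585 and 1.10 RPKM with GSK343, against 1.57 and 3.44 RPKM in DMSO (−0.89 ± 0.24, adjusted p = 0.0165), and lost its call without GSK343 library 1 or DMSO library 2. It was not called in the mutant (−0.26 ± 0.23, adjusted p = 0.692). Of 4 inhibitor genes not at members 3 were lower with GSK343, Cdkn1c, Cdkn2d and Cdkn1b.

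Cdkn2a and Cdkn2b thus passed the test in the mutant and with the inhibitor, which used separate libraries. In wild type they did not differ between day 8 and day 4 beyond the spread, with Cdkn2a at 1.24, 1.54 and 1.34 RPKM at day 4 (log2 fold change 0.02 ± 0.38). The member over the upstream Cdkn2a start spans chr4:89293445-89307691, and that over the Cdkn2b start spans chr4:89309922-89312217. The downstream Cdkn2a start lies in a different member, of 10.8 kb. Mutant day 8 library 2 had a Suz12 peak at the 14.2 kb member and no mutant list had one at the Cdkn2b member.

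Other genes at members were higher in the mutant with no overlap. Of those given here, Calcoco2 and Amn were at members of the minimum width. Fgf4 had 33.2, 70.2 and 54.0 RPKM in the mutant, against 0.577, 0.869 and 18 RPKM in wild type (3.74 ± 0.76, adjusted p = 0.0275). Calcoco2, an autophagy receptor, had 7.15, 6.70 and 7.38 RPKM in the mutant, against 0.230, 0.531 and 1.06 RPKM in wild type (2.36 ± 0.35, adjusted p = 0.00582). Cobl, an actin nucleator, had 6.53, 8.83 and 8.39 RPKM in the mutant, against 0.357, 0.460 and 1.71 RPKM in wild type (adjusted p = 0.0193). Amn, a subunit of the vitamin B12 receptor, had 2.58, 7.44 and 15.5 RPKM in the mutant, against 0.275, 0.423 and 0.889 RPKM in wild type (2.40 ± 0.39, adjusted p = 0.0112). In all 4 genes wild-type library 3 was the highest wild-type value, and each lost its call without wild-type day 8 library 1. Fgf4, Cobl and Amn also lost it without wild-type day 8 library 2, and Fgf4 and Cobl without mutant library 2. Fgf4 and Cobl each lost it in 4 of the fits that left 1 library out. All 4 genes lost it with limma voom on recovered reads and when only the groups compared were fitted. Without library 3 the difference of Fgf4 was 4.90 (adjusted p = 0.000447). Of 321 genes at members lower with GSK343, 3 were also lower in the mutant (Bhlhe41, Rhbdl3 and Spon1). That was 0.935%, against 0.638% over all genes. Of 213 higher with GSK343, 24 were also higher in the mutant (11.3%, against 5.68% over all genes). None at members was called in opposite directions. Over all genes this was also rare, with 8 of 2194 lower with GSK343 called higher in the mutant and none the reverse.

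The genes at members that fell in the mutant were Sfrp1, Bhlhe41, Rhbdl3 and Spon1. Sfrp1, a secreted Wnt antagonist, had 15.4, 10.4 and 10.04 RPKM in the mutant, against 38.3, 34.8 and 19.6 RPKM in wild type (−1.27 ± 0.24, adjusted p = 0.02). Bhlhe41, a circadian repressor, had 2.61, 1.78 and 1.64 RPKM in the mutant, against 6.90, 5.59 and 4.49 RPKM in wild type (−1.14 ± 0.24, adjusted p = 0.0334). The groups did not overlap for either gene, and both lost the call without wild-type day 8 library 1 or 2.

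Lineage genes at wide members varied within the mutant and wild-type groups. Hand2 had 57.5, 2.23 and 0.621 RPKM in mutant libraries 1, 2 and 3, against 97.3, 80.7 and 0.0890 RPKM in wild type (−1.61 ± 1.36, adjusted p = 0.676). Gata6, an endoderm and heart regulator, had 22.5, 3.72 and 7.02 RPKM in the mutant, against 45.6, 45.5 and 1.68 RPKM in wild type (−0.90 ± 0.86, adjusted p = 0.72). One library in each group ran against the other 2, so the groups overlapped and the SE was close to the difference in size. Without wild-type library 3 the differences of Hand2 and Gata6 were −3.73 and −2.27 (adjusted p = 0.0235 and 0.0233). Pou5f1 had 112, 376 and 236 RPKM in the mutant, against 27.8, 28.7 and 222 RPKM in wild type (adjusted p = 0.117), and without wild-type library 3 it was higher by 2.88 (adjusted p = 0.00049). T had 2.36, 26.8 and 10.4 RPKM in the mutant, against 10.01, 6.50 and 1.87 RPKM in wild type, and Isl1 had 9.89, 1.14 and 0.952 RPKM, against 9.47, 7.54 and 0.0945 RPKM.

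**Figure D5:**
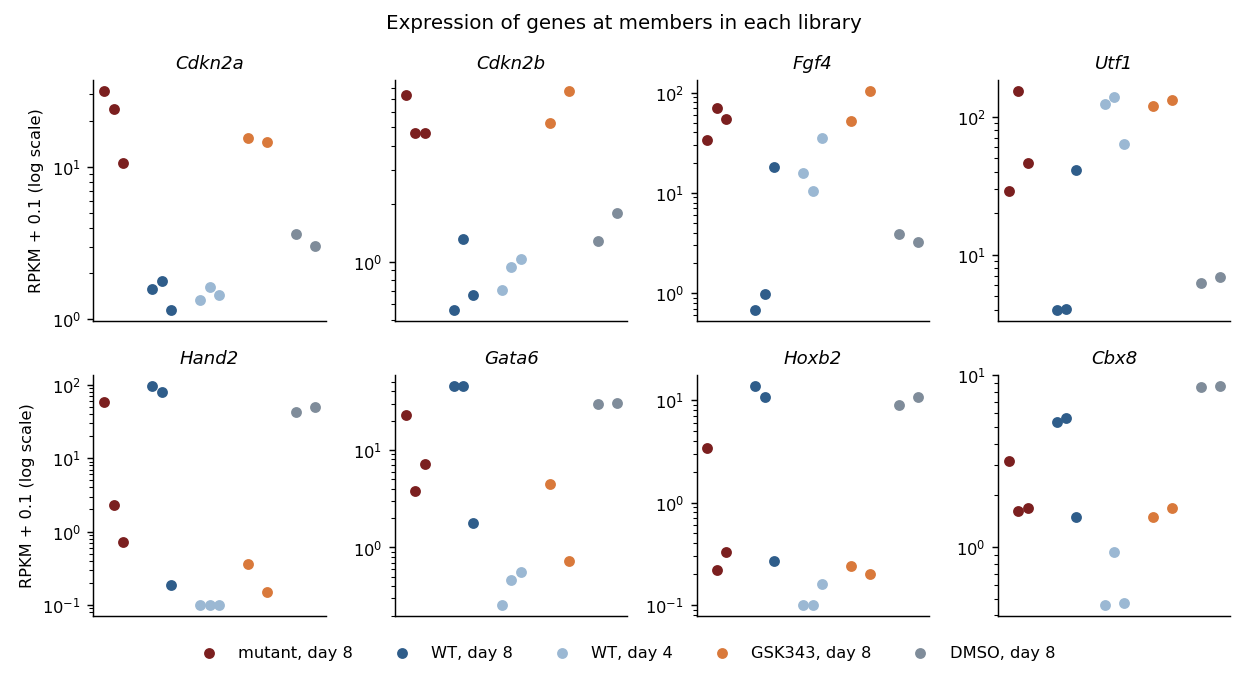
RPKM + 0.1 on a log scale (y axis) of 8 genes at members in each library of mutant and wild-type embryoid bodies at day 8, wild-type ones at day 4, and GSK343 and DMSO ones at day 8; each point is 1 library. For Cdkn2a and Cdkn2b every mutant point is above every wild-type point, while Hand2, Gata6 and Hoxb2 spread widely in both.

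GSK343 added at replating gave no called gene. Of 1134 genes at members tested none was higher or lower with limma, where 0% of 14367 genes were, and at an unadjusted p under 0.05 there were 21 at members and 328 over all genes. limma voom on recovered reads called none either. Nfix, the gene with most members, had under 1.2 RPKM in every ES cell and embryoid body library, and in replated cells 53.9, 91.2 and 38.1 RPKM with GSK343, against 21.3, 39.97 and 40.6 RPKM with DMSO, which overlapped. The GSK343 libraries of Nfix reached higher, but a difference was not detectable. Cdkn2a had 152, 119 and 123 RPKM with GSK343, against 93.2, 61.3 and 138 RPKM with DMSO, and Cdkn2b had 60.5, 79.7 and 67.1 RPKM with GSK343, against 42.6, 63.2 and 61.5 RPKM with DMSO. For both genes the 2 groups overlapped. DMSO replated library 1 stood apart with Pou5f1 at 104 RPKM, where the other 2 had 0.997 and 4.67, and without it the calls were still 0. The median log2 fold change was −0.23 over all genes tested and 0.01 at members in the deposited scaling, and 0.07 and 0.30 with equal medians.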

How the data were processed

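Peak lists of CUT&RUN and tables of RNA-seq were used as the authors deposited them, 41 RNA libraries in all. Per the submitters' processing notes, the tools named were STAR 2.5.3, featureCounts 1.6.1, edgeR, Bowtie2 2.3.4.3 and HOMER 4.10.3, with the build mm10. The deposited peak lists hold coordinates with no usable value per peak, and 9 lists are of single libraries and 4 of merged ones. The RNA values are RPKM per gene, computed by the authors from reads counted per gene, and no source used here states whether counting used strand. Members and gene lists were chosen with earlier results of these data known, and the width class of 10 kb after the widths were seen. A gene was at a member if its listed RefSeq start window (250 bases before to 50 after) lay within 1 kb, or its span where no start is listed. Genes were tested that reached 0.5 RPKM in a number of libraries no smaller than the smallest group, with limma 3.58.1 (R 4.3.3, trend, pseudocount 1, all groups of a table fitted together, no replicate block). Python 3.11.15, pandas 2.3.3 and matplotlib 3.10.9 served for overlaps and figures. The fit was tested on simulated data. Exact binomial 95% intervals cover counting error only. The RPKM steps gave whole reads for 100% of values under 1000 reads, which gave the depths. Libraries of the same number deviated together in wild-type day 8 and day 4 (correlations 0.222, 0.425 and 0.415). Day 8 library 2 also did so with day 4 library 1 (0.342), and day 8 library 1 with day 4 library 2 (0.202). The numbers from the labels are thus not shown to pair the libraries. Named genes were the 5 largest called rises and 5 largest called falls at members in each comparison with no overlap and a mean of at least 1 RPKM, the 5 genes with most members, and fixed regulators. Other genes with values were named from the fixed lists. A few genes of the fixed lists are not reported here.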

Additional observations from a re-analysis of the deposited data

How the results depend on the processing

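Every called value named above kept its direction under all alternatives that were run. Leaving out 1 library at a time gave 3 to 96 genes higher and 0 to 106 lower at members in the mutant against wild type, 137 to 223 higher and 185 to 338 lower with GSK343 against DMSO, and 51 to 331 higher and 44 to 182 lower at day 8 against day 4. In those comparisons a group may be left with 1 library, whose spread is then assumed to be that of the other groups. With the groups of the contrast alone, the counts were 0 and 0 in the mutant, 133 higher with GSK343, and 64 higher and 53 lower at day 8. With limma voom on recovered reads they were 1 and 0 in the mutant, and 112 and 35 at day 8. A pseudocount of 0.1 left 1 gene lower in the mutant, and genes overlapping a member (0 kb) left 2. With genes of a listed start alone, the counts were 1 lower in the mutant, 206 lower with GSK343 and 121 higher at day 8. On chromosomes other than 8 and 11, 1672 members remained, with 24 genes higher and 2 lower in the mutant, 136 higher with GSK343, and 133 higher and 84 lower at day 8. There the shares of members with a peak were 14.3% (Ezh2), 21.8% (Ring1B), 18.7% (merged Suz12), 5.50% (wild-type ES cells), 19.0% and 6.16% (mutant ES cells) and 4.78% and 4.25% (mutant day 4). With at least 50% of the member covered they were 7.16% (Ezh2), 0.0758% (wild-type ES cells), 0.114% (wild-type day 4), 2.58% and 0.0758% (mutant ES cells), 0.531% and 0.417% (mutant day 4), and 0.152% and 8.98% (mutant day 8). The cause of these shifts was not tested, except that the settings on chromosomes and starts remove members or genes.

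The replicate block gave 59 genes higher and 12 lower in the mutant. Same-numbered libraries there correlated at 0.746, −0.259 and 0.635, so pairing by number is not shown. At day 8 against day 4 pairing by number is not shown either. The block there gave 276 higher and 171 lower, and no other count moved by over 1.5 times. The planned edgeR test on recovered reads and the members in the upper 50% by deposited value were not run. The voom, chromosome and listed start alternatives were chosen after seeing the data. With 2 or 3 libraries a group and 1 wild-type day 8 Suz12 list, the number of calls in the mutant changes with single libraries, while that of Cdkn2a held without any 1 of them.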
